A study of Mus musculus with 12 samples.

Results

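The 10 genes described here encode ligands, extracellular antagonists and receptors of the myostatin, activin and TGF-beta branch of the TGF-beta superfamily. They are the ligand genes Mstn, Inhba, Tgfb1, Tgfb2 and Tgfb3, the follistatin family genes Fst, Fstl3 and Fstl1, and the receptor genes Tgfbr1 and Tgfbr2. They were chosen by gene symbol, with earlier results of these data known. All 10 are among the 16288 genes listed in at least 1 of 12 RNA sequencing libraries. The filter on low counts kept 9 of them for testing, and Mstn did not pass it.

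The cells were C2C12, an immortalized mouse myoblast line that exits the cell cycle and fuses into myotubes when serum is lowered. The study compared DMSO, the vehicle, with PFI-3 at 50 uM, a small molecule that docks into the acetyl-lysine pocket of BRM, BRG1 and PB1, subunits of SWI/SNF chromatin remodellers. Each treatment was sampled at 3 stages, with 2 biological duplicates (libraries A and B) in each of the 6 groups. GM denotes proliferating cells kept in 10% fetal bovine serum and harvested 12 h after treatment began. DM 24h and DM 48h denote cells that received the same 12 h of treatment and were then switched, at 90% confluence, to 2% horse serum with insulin at 2 ug/ml, with the compound or vehicle renewed every 24 h. All groups are of the same line, so they carry no difference in genotype, and a cell line in culture holds neither the nerve nor the connective tissue cells of a muscle.

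Myostatin and activin A, a dimer of the protein encoded by Inhba, bind activin type II receptors and signal through SMAD2 and SMAD3, and both are known to limit muscle growth. The TGF-beta ligands bind the receptor pair encoded by Tgfbr2 and Tgfbr1 and use the same SMADs, and added TGF-beta is known to block myoblast differentiation in culture. Follistatin and FSTL3 bind and neutralise activins and myostatin. FSTL1 carries a follistatin-like domain but is not known as a strong activin inhibitor.

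The libraries held 12576374 to 13658352 expected counts each. Duplicates were further apart in GM than later: over 10656 genes the log2 difference between A and B had an SD of 0.388 in GM DMSO and 0.354 in GM PFI-3, and of 0.146 to 0.179 in the DM groups. The 6 myoblast markers Des, Myod1, Myf5, Cdh15, Chrna1 and Myog were all listed, with a summed level of 333 to 366 FPKM in GM DMSO and 2660 to 2691 FPKM at DM 48h with DMSO. With PFI-3 that sum was 221 to 279 FPKM in GM, 894 to 911 FPKM at DM 24h (1445 to 1450 FPKM with DMSO) and 2097 to 2150 FPKM at DM 48h. Not all members followed the sum. With DMSO, Myf5 was at 27.4 and 30.2 FPKM in GM and at 20.5 and 20.2 FPKM at DM 48h. At DM 24h Myf5 was higher with PFI-3, at 24.0 and 26.4 FPKM against 21.4 and 19.4 FPKM with DMSO. Adipocyte, endothelial and epithelial marker lists summed to at most 0.84 FPKM in any library. Of 5 leukocyte markers, Cd68 was the one above 10 counts in any library, and Ptprc was not.

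FPKM, a fragment count divided by transcript length and by library total, is used below for levels, because it allows genes of different length to be compared. Differences between groups were tested on expected counts with edgeR's quasi-likelihood test and are given as log2 fold changes with their standard error (SE). P-values were adjusted over all 12545 genes tested, and values under 0.05 were called. RNA came from whole cultures, so fewer cells that express a gene and less RNA per cell cannot be told apart.

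The upstream sequences of 4 of the genes are shown because they hold different numbers of E-boxes. The E-box is a loose class of motifs that includes the sites bound by MYOD1 and MYOG but is not specific to them. Transcripts of Tgfb2, Fstl3 and Inhba followed different courses in these cells, and Mstn was too low for a course to be measured. Each sequence holds the 250 bases before a RefSeq transcription start (GRCm38.p6), 5′ to 3′ on the gene's strand, and capitals mark matches to CANNTG, the E-box. The Mstn region is chr1:53061390-53061639 on the plus strand, the Tgfb2 region chr1:186705990-186706239 on the minus strand, the Fstl3 region chr10:79777024-79777273 on the plus strand and the Inhba region chr13:16011601-16011850 on the plus strand. The starts used for Tgfb2 and Inhba lie inside the annotated span of the gene.
Mstn: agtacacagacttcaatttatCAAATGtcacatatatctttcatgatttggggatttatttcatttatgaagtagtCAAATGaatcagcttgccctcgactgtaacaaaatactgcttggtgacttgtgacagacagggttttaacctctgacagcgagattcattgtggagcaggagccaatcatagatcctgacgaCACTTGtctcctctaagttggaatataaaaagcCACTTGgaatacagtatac
Tgfb2: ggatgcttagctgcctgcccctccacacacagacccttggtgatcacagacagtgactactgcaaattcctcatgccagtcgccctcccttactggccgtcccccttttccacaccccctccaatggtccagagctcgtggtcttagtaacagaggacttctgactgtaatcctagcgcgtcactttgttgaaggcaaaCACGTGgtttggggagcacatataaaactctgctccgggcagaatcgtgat
Fstl3: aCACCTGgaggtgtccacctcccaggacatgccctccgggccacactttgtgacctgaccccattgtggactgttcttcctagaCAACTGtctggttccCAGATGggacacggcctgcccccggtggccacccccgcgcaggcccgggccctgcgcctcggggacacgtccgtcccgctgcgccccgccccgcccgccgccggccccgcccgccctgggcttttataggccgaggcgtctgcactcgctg
Inhba: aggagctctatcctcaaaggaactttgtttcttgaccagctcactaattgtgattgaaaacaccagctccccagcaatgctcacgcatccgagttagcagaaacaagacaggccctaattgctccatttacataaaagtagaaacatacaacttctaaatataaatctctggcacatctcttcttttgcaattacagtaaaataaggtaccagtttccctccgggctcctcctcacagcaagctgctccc
Mstn has 4 E-boxes, at bases -229, -174, -52 and -19 counted to the start site, Fstl3 has 3, at -249, -166 and -151, Tgfb2 has 1, at -51, and Inhba has 0. The SMAD-binding letters CAGAC occur 2 times each in the Mstn, Tgfb2 and Fstl3 regions and 0 times in that of Inhba. The letters TATAA, searched as the TATA element, lie at -29 in Mstn, -31 in Tgfb2, -28 in Fstl3 and -91 in Inhba. Both strands were searched and the 3 motifs may overlap. Among all 32851 RefSeq promoters of 250 bases before to 50 after the start, 72.3% hold an E-box, 49.6% hold CAGAC and 24.9% hold TATAA. A match is a run of letters, with no binding measured here, and a count of 0 says only that the letters are not in this window. RefSeq promoters were matched for 8 of the 10 genes, all but Fst and Tgfb3. The 4 regions were picked for their E-box numbers, and a link between these numbers and the courses was not tested.

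Mstn, which encodes myostatin, was near the limit of detection at every stage. It was listed in 1 of 12 libraries, DM 48h PFI-3 library B, with 2 expected counts and 0.06 FPKM. In the other 11 libraries it was read as 0, which allows up to 3 counts in each library, for counting error only. No comparison of Mstn between groups was possible at this depth.

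The other 9 genes spanned a wide range of levels. Averaged over the 12 libraries, Fstl1 was highest at 140.0 FPKM, above 96.0% of the genes tested. Tgfb1 followed at 51.4 FPKM, Tgfb3 at 48.6 FPKM and Tgfbr2 at 42.4 FPKM. Fst averaged 25.2 FPKM, Tgfb2 13.5 FPKM, Fstl3 13.1 FPKM, Tgfbr1 11.1 FPKM and Inhba 8.6 FPKM. The means hide large changes over time, which the plot of FPKM by library shows.

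**Figure D1:**
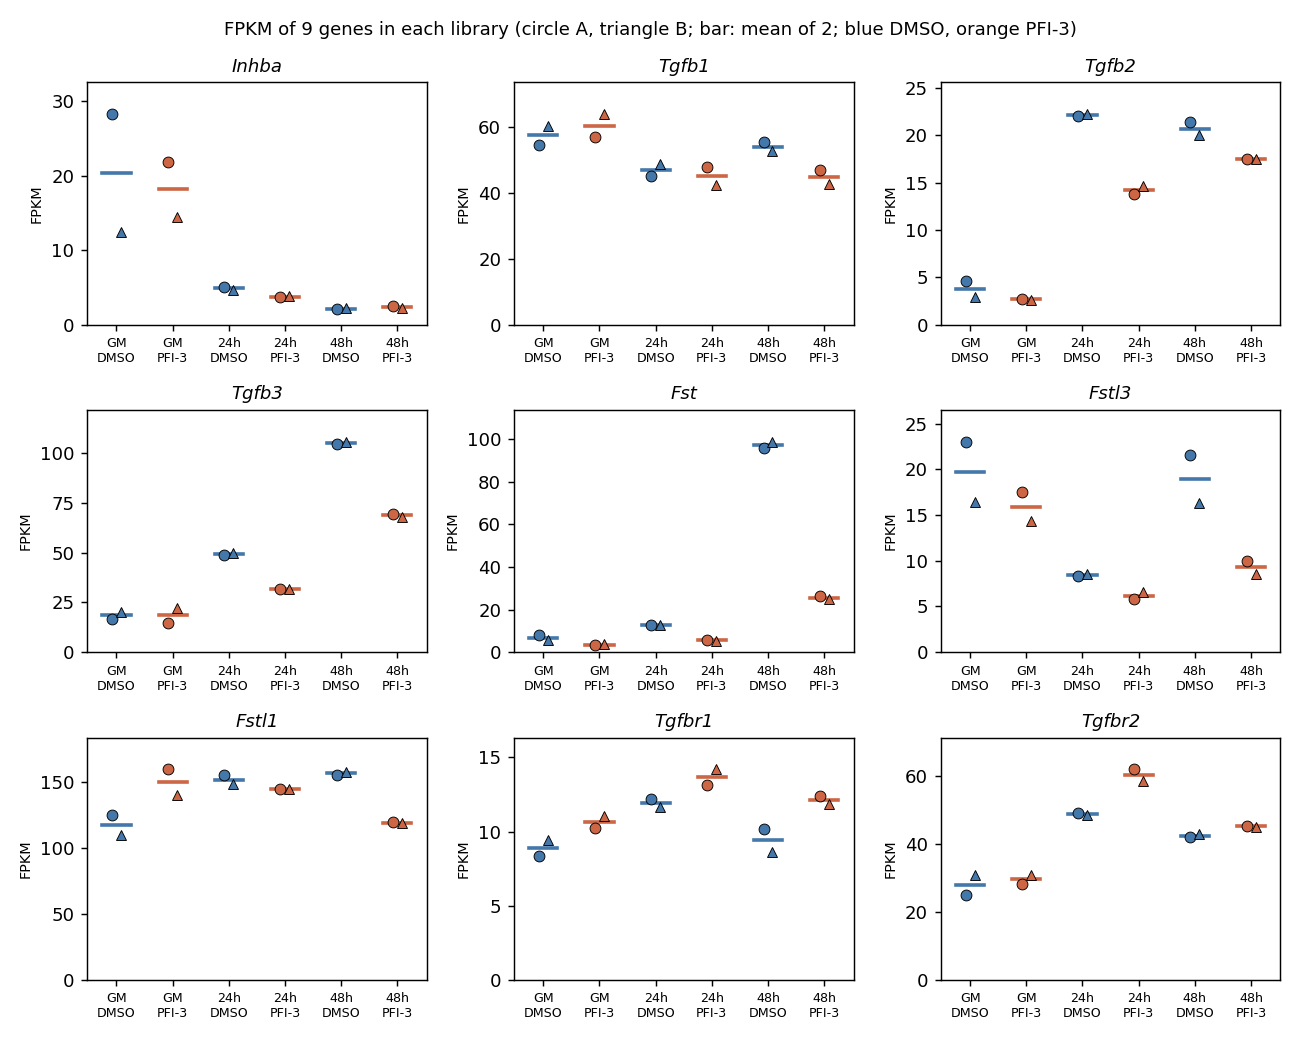
FPKM (vertical axis, linear from 0) of the 9 tested genes in each library, by stage and treatment; circles are library A, triangles library B and bars the mean of 2. Fst and Tgfb3 were highest at DM 48h with DMSO, near 97.2 and 105 FPKM, while Inhba was highest in GM, where its libraries also lay furthest apart.

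With DMSO, all 9 tested genes changed between GM and DM 24h, 6 higher and 3 lower, where 30.6% of all genes tested were called higher and 30.0% lower. Between GM and DM 48h, 5 rose and 1 fell, against 37.2% and 35.9% of all genes. Between DM 24h and DM 48h, 4 rose and 2 fell, against 24.2% and 23.9% of all genes. The median log2 fold change of the 9 genes was 0.37, 0.42 and 0.11 in these comparisons, beside 0.02, 0.026 and 0.005 over all genes. The comparisons share DMSO libraries, so their values are not independent of each other.

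Among the ligands, Inhba declined through the course. Its FPKM with DMSO was 28.3 and 12.4 in GM (libraries A and B), 5.05 and 4.69 at DM 24h, then 2.05 and 2.24 at DM 48h. Every GM library lay above every DM library, although the GM pair differed by more than the DM 24h level itself. Inhba fell by 2.13 on the log2 scale from GM to DM 24h (SE 0.32, adjusted p = 0.000111) and by 3.25 from GM to DM 48h (SE 0.35, adjusted p = 3.59e-06), a level 9.5-fold lower. Without GM DMSO library A, the higher of the pair, the change from GM to DM 24h was -1.36 (adjusted p = 2.53e-05) and that from GM to DM 48h was -2.48 (adjusted p = 7.58e-08). The further fall of 1.12 from DM 24h to DM 48h (SE 0.37, adjusted p = 0.0256) was lost when any 1 of its 4 libraries was left out, with adjusted p between 0.0699 and 0.115.

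The 3 TGF-beta ligand genes followed 3 different courses with DMSO. Tgfb2 was at 4.58 and 2.91 FPKM in GM, 22.0 and 22.2 FPKM at DM 24h, and 21.4 and 20.0 FPKM at DM 48h. It rose by 2.51 to DM 24h (SE 0.15, adjusted p = 6.01e-08), a level 5.68-fold higher, and then differed by -0.04 (SE 0.14, adjusted p = 0.846) between DM 24h and DM 48h. Tgfb3 was at 16.7 and 20.2 FPKM in GM, 48.7 and 49.6 FPKM at DM 24h, and 104 and 106 FPKM at DM 48h. Its rise came in 2 steps of similar size, 1.36 (SE 0.14, adjusted p = 4.82e-06) and 1.16 (SE 0.13, adjusted p = 1.85e-05), and the 3 pairs of libraries did not overlap.

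Tgfb1, which encodes the TGF-beta ligand most studied in muscle fibrosis, stayed within a narrow range. It was at 54.5 and 60.3 FPKM in GM, 45.0 and 48.6 FPKM at DM 24h, and 55.2 and 52.7 FPKM at DM 48h. Tgfb1 fell by 0.34 to DM 24h (SE 0.09, adjusted p = 0.0045), a call lost without DM 24h DMSO library A (adjusted p = 0.0526), and at DM 48h it differed from GM by -0.08 (SE 0.09, adjusted p = 0.438). Its rise of 0.27 from DM 24h to DM 48h (SE 0.09, adjusted p = 0.0233) was lost on the FPKM scale and without DM 24h DMSO library A or either DM 48h DMSO library, with adjusted p of 0.0525 to 0.168.

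The makeup of TGF-beta ligand transcripts differed between stages. Tgfb1 made up 71.9% and 72.3% of the summed FPKM of the 3 genes in the GM DMSO libraries and 30.5% and 29.5% at DM 48h. Tgfb3 went from 22.1% and 24.2% to 57.7% and 59.3%. The sum itself went from 75.8 and 83.4 FPKM to 181 and 178 FPKM. No test was run on the shares, which do not overlap between the stages.

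Among the antagonists, Fst, which encodes follistatin, showed the largest change over time of the 9 genes. With DMSO it was at 8.19 and 5.49 FPKM in GM, 12.6 and 12.7 FPKM at DM 24h, and 95.6 and 98.8 FPKM at DM 48h. Most of its increase came in the second day. Fst rose by 0.83 from GM to DM 24h (SE 0.16, adjusted p = 0.000623) and by 3.0 from DM 24h to DM 48h (SE 0.14, adjusted p = 8.74e-09), and its DM 48h level was 14.1-fold that of GM. Without GM DMSO library B the first step was 0.53 (adjusted p = 0.000687).

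Fstl3, which encodes a second activin and myostatin antagonist, fell and then returned. It was at 23.0 and 16.4 FPKM in GM, 8.38 and 8.54 FPKM at DM 24h, and 21.5 and 16.3 FPKM at DM 48h. The fall of 1.28 (SE 0.19, adjusted p = 0.000105) was followed by a rise of 1.22 (SE 0.19, adjusted p = 0.00023), and DM 48h differed from GM by -0.06 (SE 0.18, adjusted p = 0.787). Fstl1 was high throughout, at 125 and 110 FPKM in GM, 156 and 149 FPKM at DM 24h and 156 and 158 FPKM at DM 48h. It rose by 0.31 to DM 24h (SE 0.08, adjusted p = 0.0066), a call lost without DM 24h DMSO library A (adjusted p = 0.0504) and a value of 0.19 (adjusted p = 0.0375) without GM DMSO library B. Its rise from GM to DM 48h was 0.42 (SE 0.08, adjusted p = 0.000645).

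Both receptor genes were higher at DM 24h than in GM with DMSO. Tgfbr2, the type II receptor that binds the ligand first, was at 24.9 and 30.9 FPKM in GM, 49.2 and 48.7 FPKM at DM 24h, and 42.0 and 42.8 FPKM at DM 48h. It rose by 0.76 to DM 24h (SE 0.08, adjusted p = 5.33e-06) and stood 0.62 above GM at DM 48h (SE 0.08, adjusted p = 1.6e-05). Tgfbr1, the type I receptor kinase that phosphorylates SMAD2 and SMAD3, was at 8.37 and 9.41 FPKM in GM, 12.2 and 11.7 FPKM at DM 24h, and 10.2 and 8.62 FPKM at DM 48h. It rose by 0.37 (SE 0.09, adjusted p = 0.00329) and then fell by 0.28 (SE 0.09, adjusted p = 0.0213), and without DM 48h DMSO library B the second change was -0.159 (adjusted p = 0.237). The call on that fall was also lost without either DM 24h DMSO library (adjusted p = 0.114 and 0.0628).

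PFI-3 lowered several of the same transcripts, most of all Fst. In GM, 0 of the 9 genes were called higher and 2 lower, where 5.46% of all genes tested were called higher and 6.15% lower. At DM 24h, 1 rose and 3 fell, against 12.2% and 11.4% of all genes. At DM 48h, 1 rose and 5 fell, against 13.4% and 14.0% of all genes. The median log2 fold change of the 9 genes was -0.08, -0.43 and -0.36, beside -0.01, -0.001 and 0.001 over all genes. On the FPKM scale with limma, called genes of the whole table were more often higher, 75.3%, 62.0% and 65.3% at the 3 stages against 47.0%, 51.7% and 48.9% with edgeR.

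**Figure D2:**
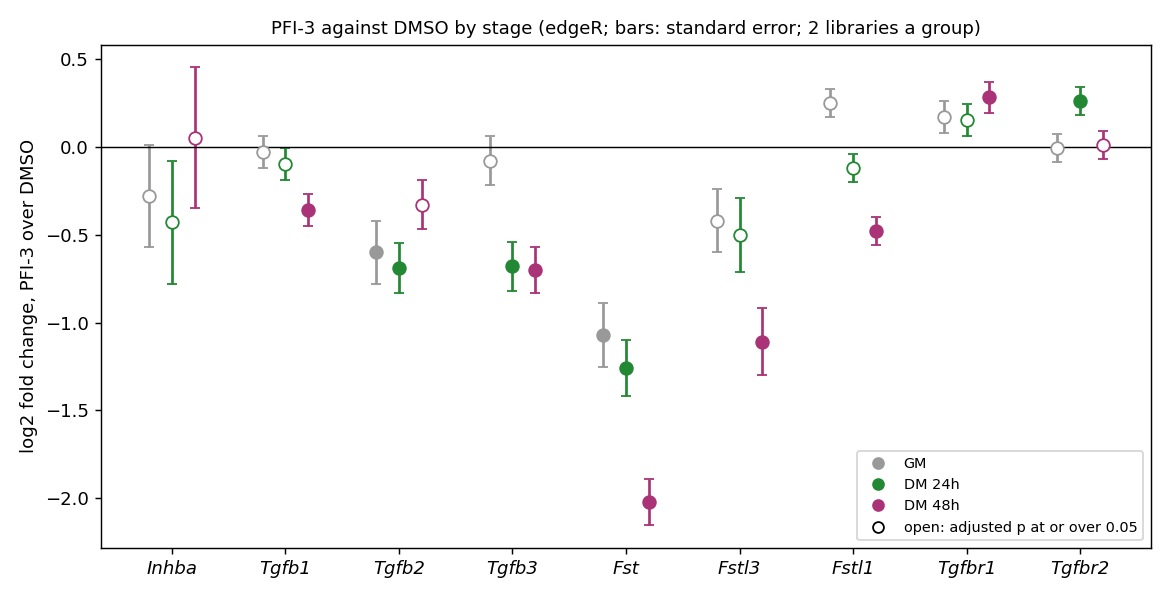
Log2 fold change of PFI-3 over DMSO (vertical axis) for the 9 tested genes at the 3 stages; bars are standard errors, and filled points were called at an adjusted p under 0.05. Fst lies lowest at each stage, from -1.07 in GM to -2.02 at DM 48h, and the receptor genes Tgfbr1 and Tgfbr2 are the called points above 0.

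Fst fell with PFI-3 at each stage. Its FPKM with PFI-3 was 3.25 and 3.83 for the GM pair, 5.69 and 5.37 at DM 24h, then 26.4 and 24.7 at DM 48h. At no stage did these values overlap those with DMSO, and the DM 24h pair with PFI-3 overlapped the GM pair with DMSO. Fst fell by 1.07 in GM (SE 0.18, adjusted p = 0.00377) and by 1.26 a day after induction (SE 0.16, adjusted p = 0.000203). At the last stage it fell by 2.02 (SE 0.13, adjusted p = 1.18e-06), to a level 4.05-fold lower. In GM the value was -0.695 without DMSO library A (adjusted p = 0.00449), and a fit of the 4 GM libraries alone gave an adjusted p of 0.22.

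The effect on Fst was larger at DM 48h than at the other stages. The difference between the DM 48h and GM effects was -0.95 (SE 0.22, adjusted p = 0.0148), and that between DM 48h and DM 24h was -0.76 (SE 0.21, adjusted p = 0.0348). The first was lost without GM PFI-3 library B, DM 48h DMSO library B or DM 48h PFI-3 library B (adjusted p = 0.0564, 0.0517 and 0.0601). The second was lost without any 1 of its 8 libraries (adjusted p = 0.0867 to 0.145). Between DM 24h and GM the effects differed by -0.19 (SE 0.24, adjusted p = 0.753), and by -0.558 without GM DMSO library A (adjusted p = 0.0467).

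Fstl3 fell with PFI-3 at DM 48h. Its FPKM with PFI-3 was 17.5 and 14.3 for the GM pair, 5.83 and 6.55 at DM 24h, then 10.0 and 8.60 at DM 48h. The GM values overlapped those with DMSO, and the values of both DM stages lay below them. Fstl3 fell by 1.11 at the last stage (SE 0.19, adjusted p = 0.00101). The values of -0.50 for DM 24h (SE 0.21, adjusted p = 0.11) and -0.42 for GM (SE 0.18, adjusted p = 0.15) were not called. The GM value was -0.107 without DMSO library A (adjusted p = 0.74) and -0.674, and called, without DMSO library B (adjusted p = 0.00835). In a fit of the 8 DM libraries alone, chosen after seeing the data, the adjusted p at DM 24h was 0.00174.

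Fstl1 had effects of opposite sign in GM and at DM 48h. Its FPKM with PFI-3 was 160 and 141 for the GM pair, 145 and 145 at DM 24h, then 120 and 119 at DM 48h. In GM both PFI-3 libraries were above both DMSO libraries, and at both DM stages they were below. It fell by 0.48 at DM 48h (SE 0.08, adjusted p = 0.00123), while the GM change of 0.25 (SE 0.08, adjusted p = 0.0772) and the DM 24h change of -0.12 (SE 0.08, adjusted p = 0.346) were not called. The GM change was called without GM DMSO library A (0.388, adjusted p = 0.00537) or GM PFI-3 library B (0.336, adjusted p = 0.0326), and on the FPKM scale (adjusted p = 0.0171 and 0.0172). On the FPKM scale the median log2 fold change over all genes in GM was itself higher, 0.063 and 0.081 against -0.01 with edgeR. The difference between the DM 48h and GM effects on Fstl1 was -0.73 (SE 0.12, adjusted p = 0.00172) and was called in 17 of 17 alternative fits besides the 2-fold cutoff.

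Tgfb2 and Tgfb3 were lower with PFI-3 after induction. Tgfb3 with PFI-3 was at 14.8 and 22.4 FPKM in GM, 31.6 and 31.9 FPKM at DM 24h, and 69.5 and 68.0 FPKM at DM 48h. The GM values lay on both sides of those with DMSO, and the later ones were below them. Tgfb3 fell by 0.68 at DM 24h (SE 0.14, adjusted p = 0.00402) and by 0.70 a day later (SE 0.13, adjusted p = 0.00198), whereas the GM change was -0.08 (SE 0.14, adjusted p = 0.745). The difference from the GM effect was not called at either time, at -0.60 (SE 0.20, adjusted p = 0.126) and -0.62 (SE 0.19, adjusted p = 0.0537). Without GM PFI-3 library A these were -0.866 and -0.886 and both called (adjusted p = 0.00155 and 0.00027), and without GM PFI-3 library B they were -0.261 and -0.281 (adjusted p = 0.198 and 0.103). The later one was also called without GM DMSO library B (-0.715, adjusted p = 0.0206). The GM change itself was -0.418 without GM PFI-3 library B (adjusted p = 0.0121).

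Tgfb2 with PFI-3 was at 2.75 and 2.56 FPKM in GM, 13.8 and 14.6 FPKM at DM 24h, and 17.5 and 17.4 FPKM at DM 48h. All these values lay below those with DMSO at the same stage. Tgfb2 fell by 0.69 at DM 24h (SE 0.14, adjusted p = 0.00413), a call that without DM 24h PFI-3 library A had an adjusted p of 0.0521. It fell by 0.60 in GM (SE 0.18, adjusted p = 0.0477), a call that rests on GM DMSO library A: without it the value was -0.193 (adjusted p = 0.351), and without DMSO library B it was -0.93 (adjusted p = 6.97e-05). The GM call was also lost without either PFI-3 library (adjusted p = 0.0871 and 0.129). At DM 48h the change was -0.33 (SE 0.14, adjusted p = 0.0974), and 1.93e-06 was its adjusted p in the fit of the 8 DM libraries alone.

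In GM neither Tgfb3 nor Tgfb1 was called, and at DM 24h Tgfb1 had the smallest change of the 3 TGF-beta ligand genes. With PFI-3 it was at 56.8 and 63.9 FPKM in GM, 47.8 and 42.4 FPKM at DM 24h, and 46.8 and 42.7 FPKM at DM 48h, and only the DM 48h values were clear of those with DMSO. It fell by 0.36 at DM 48h (SE 0.09, adjusted p = 0.00968), and the adjusted p was 0.0724 without DMSO library A and 0.0986 without PFI-3 library B. In GM and at DM 24h it differed by -0.03 and -0.10 (SE 0.09 each, adjusted p = 0.884 and 0.439). The summed FPKM of the 3 ligand genes with PFI-3 was 93.3 and 88.9 at DM 24h, below the 116 and 120 with DMSO, and reached 134 and 128 a day later, below 181 and 178. Tgfb3 made up 33.9% and 35.9% of the sum at DM 24h with PFI-3, against 42.1% and 41.2% with DMSO, and 52.0% and 53.1% at DM 48h, against 57.7% and 59.3%.

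Inhba was not called with PFI-3 at any stage. With PFI-3 it was at 21.9 and 14.4 FPKM in GM, inside the range of the DMSO pair, 3.64 and 3.84 FPKM at DM 24h, below the DMSO pair, and 2.44 and 2.28 FPKM at DM 48h, slightly above it. The log2 fold change was -0.28 in GM (SE 0.29, adjusted p = 0.566), then -0.43 (SE 0.35, adjusted p = 0.408) and 0.05 at the last stage (SE 0.40, adjusted p = 0.943). The GM value was 0.49 without DMSO library A (adjusted p = 0.0876) and -0.78 without DMSO library B (adjusted p = 0.00364), so its sign depended on 1 library. In the fit of the 8 DM libraries alone the DM 24h change had an adjusted p of 9.34e-05.

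The ratio of Fst to Inhba FPKM sets the antagonist beside the ligand it binds, at the level of transcripts. With DMSO it was 0.29 and 0.443 for the GM pair, 2.49 and 2.70 at DM 24h, then 46.6 and 44.1 at DM 48h. With PFI-3 it was 0.149 and 0.265, 1.56 and 1.40, and 10.8 and 10.8. The ratio rose through the course under both treatments and was lower with PFI-3 in each stage, with no overlap of the pairs; no test was run on it.

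**Figure D3:**
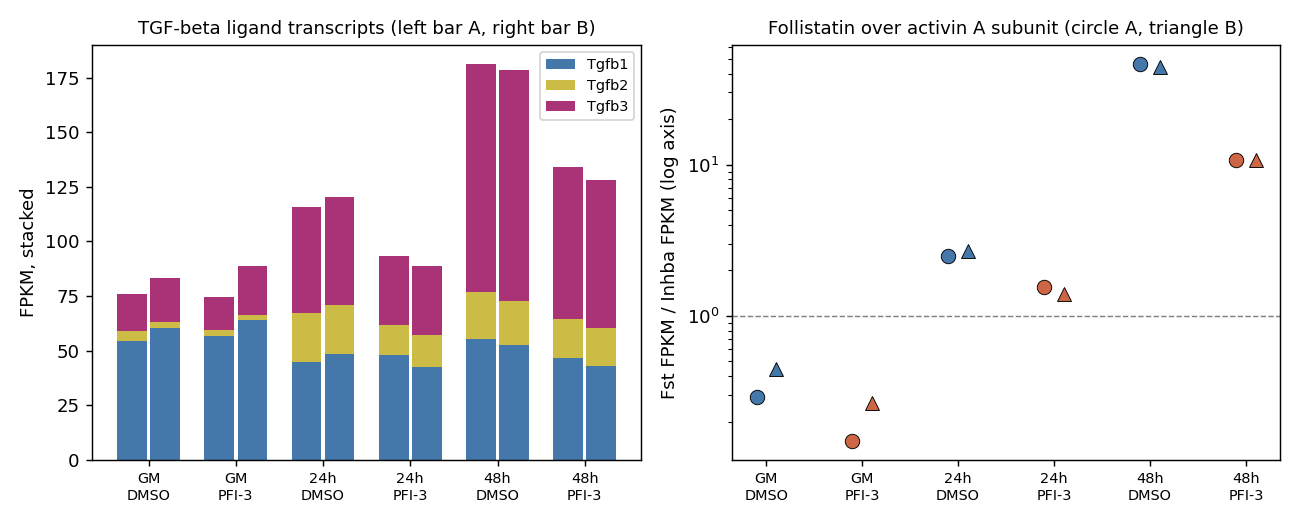
Left, FPKM of Tgfb1, Tgfb2 and Tgfb3 stacked for each library (left bar A, right bar B of each group); right, the ratio of Fst to Inhba FPKM per library on a log axis, with a dashed line at 1. The stack is tallest at DM 48h with DMSO, 181 and 178 FPKM, and the ratio crosses 1 between GM and DM 24h under both treatments.

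The receptor genes moved little, and upward where called. Tgfbr2 with PFI-3 was at 28.3 and 30.8 FPKM in GM, 62.0 and 58.6 FPKM at DM 24h, and 45.2 and 45.1 FPKM at DM 48h. It rose by 0.26 at DM 24h (SE 0.08, adjusted p = 0.0326), a call lost without any 1 of the 4 libraries compared (adjusted p = 0.0802 to 0.203), with DESeq2-style size factors (0.0518) and in DESeq2 (0.0704). At DM 48h its FPKM values were higher with PFI-3, while the change on edgeR's scale was 0.01 (SE 0.08, adjusted p = 0.964), and in GM it was -0.01 (SE 0.08, adjusted p = 0.938).

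Tgfbr1 with PFI-3 was at 10.3 and 11.1 FPKM in GM, 13.1 and 14.2 FPKM at DM 24h, and 12.4 and 11.8 FPKM at DM 48h, in each stage above both DMSO libraries. It rose by 0.28 at DM 48h (SE 0.09, adjusted p = 0.0348), and by 0.162 without DM 48h DMSO library B (adjusted p = 0.316). The call was also lost without either PFI-3 library (adjusted p = 0.188 and 0.0835) and in DESeq2 (0.0855). In GM and at DM 24h it differed by 0.17 and 0.15 (SE 0.09 each, adjusted p = 0.253 and 0.246).

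The interaction tests, which compare the PFI-3 effect between stages, called 0 of the 9 genes for DM 24h against GM, where 3.37% of all genes were called. In that comparison 3 genes had an unadjusted p under 0.05, and DESeq2 called 1. For DM 48h against GM 2 of the 9 were called, Fst and Fstl1, against 14.5% of all genes. For DM 48h against DM 24h 1 was called, Fst, against 12.1% of all genes.

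Ordered by mean level over the 6 groups, Fst was highest at DM 48h with DMSO (97.2 ± 2.26 FPKM, SD, n = 2), then at DM 48h with PFI-3 (25.5 ± 1.19 FPKM) and at DM 24h with DMSO (12.6 ± 0.0707 FPKM), the neighbours GM DMSO and DM 24h PFI-3 overlapped, and GM with PFI-3 was lowest (3.54 ± 0.41 FPKM). Tgfb3 ran from DM 48h with DMSO (105 ± 0.969 FPKM) through DM 48h with PFI-3, DM 24h with DMSO and DM 24h with PFI-3 to the 2 GM groups, which overlapped. Tgfb2 was highest at DM 24h with DMSO (22.1 ± 0.156 FPKM) and lowest in GM with PFI-3 (2.66 ± 0.134 FPKM), with no overlap between neighbours. Inhba was highest in the 2 GM groups, which overlapped, and lowest at DM 48h with DMSO (2.15 ± 0.134 FPKM). For Tgfb1 the GM PFI-3, GM DMSO and DM 48h DMSO groups overlapped their neighbours, as did the 3 lowest groups among themselves. Fstl3 was highest in GM with DMSO (19.7 ± 4.66 FPKM), DM 48h with DMSO and GM with PFI-3, which overlapped, and lowest at DM 24h with PFI-3 (6.19 ± 0.509 FPKM). Fstl1 was lowest in GM with DMSO (118 ± 10.4 FPKM) and at DM 48h with PFI-3, which overlapped. Tgfbr2 was highest at DM 24h with PFI-3 (60.3 ± 2.46 FPKM) and lowest in the 2 GM groups, which overlapped, and Tgfbr1 was highest at DM 24h with PFI-3 (13.7 ± 0.757 FPKM).

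The genes most like 3 of these in pattern were ranked by Pearson correlation of log2(CPM + 1) over the 12 libraries, among 9388 genes. Groups and stages are shared by all genes, so high values describe a common course and carry no p. Nearest to Fst were Wdr45b (r = 0.9931), Uqcrc2 (0.9877) and Sucla2 (0.9876). Wdr45b ranged from 31.8 to 47.2 FPKM, a far smaller range than that of Fst. Nearest to Tgfb3 were Patj (0.9928), Dtna (0.9918) and Arl5a (0.9903), and Dtna, which encodes the dystrophin-associated protein dystrobrevin alpha, ranged from 3.04 to 31.6 FPKM. Nearest to Tgfb2 were Herc1 (0.9908), Mycl (0.9885) and Pknox2 (0.9868), and Mycl, a member of the MYC family, ranged from 1.28 to 35.9 FPKM.

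A list of 61 other genes of the pathway, also chosen with earlier results of these data known, was counted beside these. Of the 61, 56 were listed and 52 tested. With PFI-3 in GM, 3 rose and 12 fell; the counts were 5 and 11 at DM 24h, then 3 and 14 at DM 48h, with medians of -0.17, -0.10 and -0.16. Of 14 tested genes known as targets of TGF-beta or SMAD3, 0 were called higher and 6, 4 and 5 were called lower at the 3 stages, with medians of -0.74, -0.61 and -0.94. Of all genes tested, 5.46%, 12.2% and 13.4% were called higher at the 3 stages, and 6.15%, 11.4% and 14.0% lower. The counts are to be read against these shares. In an edgeR fit of the 4 GM libraries alone, the GM calls of the targets Acta2, Bhlhe40, Pdgfb, Postn and Tgfb1i1 were lost (adjusted p = 0.0956 to 0.397). Among the 15 GM calls of the whole list, only those of Col1a1 and Thbs1 were kept in that fit. Those lost included Furin, Lrrc32 and Ltbp2 (adjusted p = 0.318, 0.33 and 0.13). At DM 24h the call of the target Ldlrad4 was lost in DESeq2 (adjusted p = 0.105) and in limma on the FPKM scale (0.0575 and 0.0815). It was also lost without any 1 of the 4 libraries compared.

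**Figure D4:**
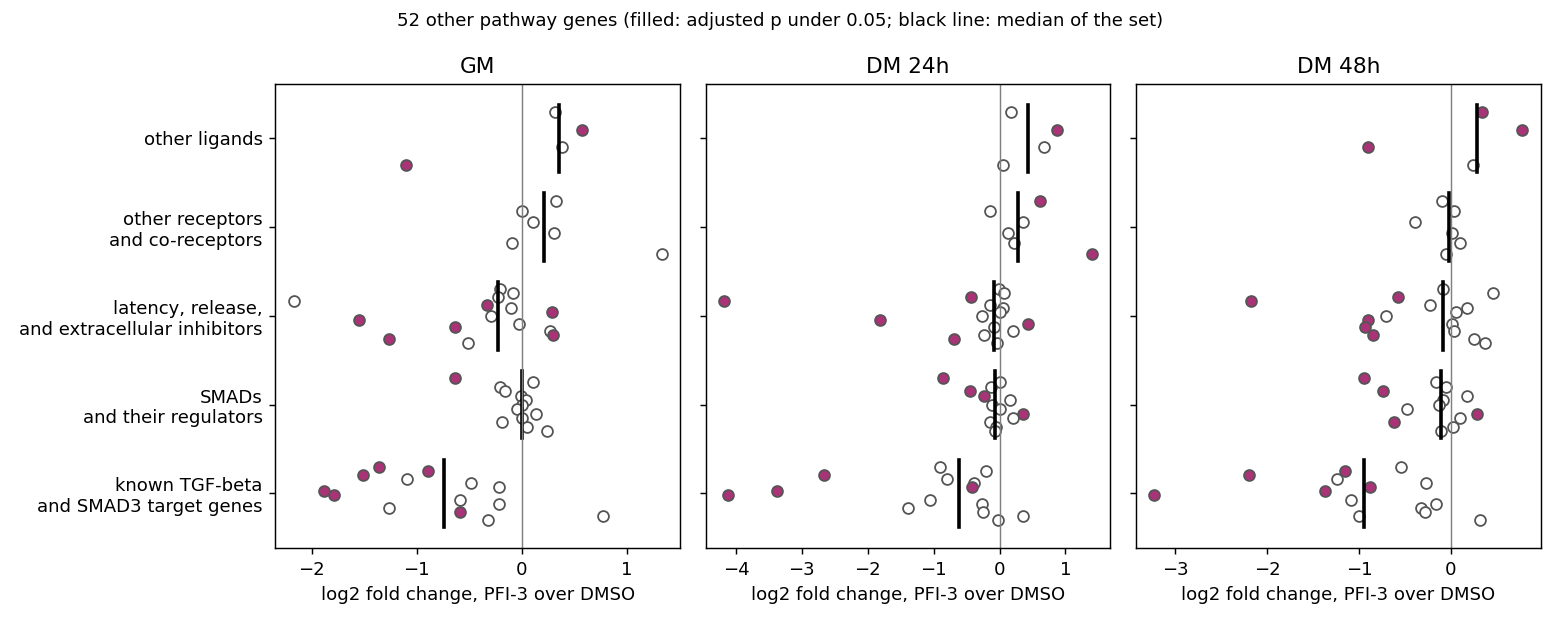
Log2 fold change of PFI-3 over DMSO (horizontal axis) for the 52 other tested pathway genes in 5 sets, 1 panel for each stage; filled points were called and black lines are set medians. The target genes have the lowest set medians, and Fmod and Postn, at -4.18 and -4.12 at DM 24h, are the points furthest left.

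Col1a1, Postn and Fmod had the largest falls with PFI-3 at DM 24h and DM 48h among called genes whose mean reached 5 CPM (counts scaled to library size). Col1a1, the alpha-1 chain of type I collagen, was at 6.09 and 6.50 FPKM with DMSO and 2.53 and 2.22 FPKM with PFI-3 in GM, and at 96.7 and 93.8 against 22.2 and 21.9 FPKM at DM 48h. Its log2 fold change was -1.51, -2.67 and -2.20 at the 3 stages (SE 0.08, 0.07 and 0.06), with an adjusted p of at most 8.51e-07 in each stage. Postn, which encodes the matrix protein periostin, went from 14.0 and 15.2 FPKM to 0.82 and 0.92 FPKM with PFI-3 at DM 24h. It fell by 4.12 there (SE 0.20, adjusted p = 9.96e-08), and by DM 48h the difference was -3.23 (SE 0.15, adjusted p = 1.71e-07). Fmod, which encodes the TGF-beta-binding proteoglycan fibromodulin, fell by 4.18 at DM 24h (SE 0.33, adjusted p = 5.4e-06) from 4.42 and 3.63 FPKM to 0.23 and 0.23 FPKM, and its DM 48h difference was -2.18 (SE 0.24, adjusted p = 4.17e-05). Pdgfb, a growth factor gene below that minimum in GM and at DM 24h and named after its values were seen, fell by 1.88, 3.38 and 1.37 (SE 0.35, 0.28 and 0.17, adjusted p = 0.00662, 6.81e-06 and 0.000107), with the GM call lost in a fit of the 4 GM libraries alone (adjusted p = 0.234). The matrix genes Fn1 and Dcn, named likewise, were called at no stage.

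In GM, under the same minimum, the largest falls after Col1a1 were those of Acta2 and Thbs1. Acta2, smooth muscle actin, fell by 1.36 (SE 0.32, adjusted p = 0.0204), with DMSO libraries at 1403 and 548 FPKM and PFI-3 libraries at 494 and 329 FPKM. Without GM DMSO library A the value was -0.472 (adjusted p = 0.0649), and without GM PFI-3 library B it was -1.1 (adjusted p = 0.0838). Thbs1, which encodes thrombospondin 1, an activator of latent TGF-beta, fell by 1.26 (SE 0.09, adjusted p = 1.14e-05), from 192 and 167 FPKM to 75.6 and 85.1 FPKM. It also fell at DM 24h, by 0.69 (SE 0.09, adjusted p = 0.000214), and differed by 0.25 at DM 48h (SE 0.09, adjusted p = 0.0565). Ctgf, connective tissue growth factor and a classical SMAD3 target, was not called with PFI-3 at any stage. Its differences were -1.09, -0.80 and -1.24 (SE 0.38, 0.71 and 0.59, adjusted p = 0.0867, 0.449 and 0.146). At DM 24h Ctgf was at 1.31 and 1.38 FPKM with PFI-3 and at 2.14 and 2.40 FPKM with DMSO. At DM 48h it was at 2.04 and 1.90 FPKM against 4.55 and 4.21 FPKM. It was called in 2 of 14 alternatives at DM 24h and in 3 of 14 at DM 48h, besides the 2-fold cutoff. The GM value rests on GM DMSO library A: it was 0.078 without that library (adjusted p = 0.767) and -1.73 without GM DMSO library B (adjusted p = 4.03e-07).

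Fewer pathway genes rose than fell with PFI-3. At the 3 stages 3, 5 and 3 of 52 were called higher, where 5.46%, 12.2% and 13.4% of all genes tested were. Gdf15, a stress-induced distant member of the superfamily, rose at each stage, by 0.57, 0.87 and 0.78 (SE 0.13, 0.16 and 0.17, adjusted p = 0.0194, 0.00242 and 0.00545). At DM 24h it went from 4.20 and 4.43 FPKM to 8.70 and 7.80 FPKM. The GM call was lost without GM DMSO library A or GM PFI-3 library A (adjusted p = 0.0524 and 0.0933). In GM, Ltbp4, a latent TGF-beta binding protein gene, and Itgb5, an integrin subunit gene, rose by 0.30 and 0.29 (SE 0.08 and 0.07, adjusted p = 0.0358 and 0.0213). Without GM DMSO library A neither was called (adjusted p = 0.0802 and 0.0761), nor was Ltbp4 without GM PFI-3 library A (0.186, adjusted p = 0.164) or Itgb5 without GM PFI-3 library B (adjusted p = 0.053). At DM 48h Ltbp4 changed the other way, falling by 0.85 (SE 0.08, adjusted p = 1.19e-05), from 31.1 and 31.1 FPKM to 18.2 and 18.4 FPKM. In a fit of the 4 GM libraries alone the GM calls of Acta2, Gdf15, Ltbp4 and Itgb5 were lost (adjusted p = 0.33, 0.296, 0.364 and 0.364). At DM 24h Acvr1b, an activin type I receptor gene, rose by 0.62 (SE 0.13, adjusted p = 0.00575) and Ltbp1 by 0.43 (SE 0.09, adjusted p = 0.00534), calls lost without DM 24h DMSO library A (adjusted p = 0.0602) and without DM 24h PFI-3 library A (adjusted p = 0.0545), respectively. At DM 48h Gdf11, the closest relative of myostatin, rose by 0.34 (SE 0.11, adjusted p = 0.033) and Smurf1, a ubiquitin ligase gene, by 0.29 (SE 0.08, adjusted p = 0.0173). Both calls were lost without DMSO library A, DMSO library B or PFI-3 library A of that stage, with adjusted p of 0.0824 to 0.251 for Gdf11 and 0.0906 to 0.121 for Smurf1.

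The remaining activin and myostatin receptors and the SMAD genes were mostly not called with PFI-3. Acvr2a and Acvr2b, the type II receptors of myostatin and activin, were called at none of the 3 stages, with changes between -0.15 and 0.04 and between -0.39 and 0.35. Smad3 differed by 0.04, 0.16 and -0.08, and Smad4 by 0.00, -0.11 and -0.13. Smad7, the inhibitory SMAD, differed by -0.05, 0.00 and -0.48, and none of these changes was called. Besides the 2-fold cutoff, 4 of 14 alternatives called Smad3 at DM 24h (30.5 and 29.9 FPKM with PFI-3, 25.9 and 26.3 FPKM with DMSO). At DM 48h 3 of 14 called Acvr2b and 2 of 14 called Smad7. The GM value of Smad7 was 0.428 without DMSO library A (adjusted p = 0.0364) and -0.415 without DMSO library B (adjusted p = 0.0152). Smad2 fell by 0.23 at DM 24h (SE 0.07, adjusted p = 0.0224). That call was lost on the FPKM scale (adjusted p = 0.111 and 0.119) and without DM 24h DMSO library A or either DM 24h PFI-3 library. In GM and at DM 48h Smad2 differed by -0.01 and 0.18 (SE 0.07 each, adjusted p = 0.938 and 0.0718). At DM 48h it was at 9.01 and 8.76 FPKM with PFI-3 and at 7.56 and 7.29 FPKM with DMSO. The DM 48h change was called in 4 of 14 alternatives besides the 2-fold cutoff.

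Over the DMSO course of the same list, 24 of 52 genes rose and 18 fell between GM and DM 48h, with a median of 0.14, where 37.2% of all genes were called higher and 35.9% lower. Smad3, the signal-transducing SMAD, rose by 1.60 (SE 0.07, adjusted p = 6.73e-10), from 11.0 FPKM in both GM libraries to 32.5 and 33.6 FPKM. Smad7 fell by 2.53 (SE 0.23, adjusted p = 7.31e-07), from 24.6 and 14.5 FPKM to 3.76 and 2.99 FPKM. Acvr2a, Acvr2b and Acvr1b rose by 1.09, 1.12 and 0.64 (SE 0.09, 0.28 and 0.13, adjusted p = 4.09e-07, 0.00297 and 0.000527), Smad2 fell by 0.36 (SE 0.07, adjusted p = 0.00037) and Smad4 differed by 0.07 (SE 0.07, adjusted p = 0.383).

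Of the 14 target genes, 7 were called higher and 6 lower over the same interval, against the same shares of all genes. Tagln, which encodes the smooth muscle protein transgelin, fell by 3.36 (SE 0.54, adjusted p = 0.000123), and Ctgf fell by 3.06 (SE 0.44, adjusted p = 4.76e-05). The GM DMSO libraries were far apart for both, at 467 and 118 FPKM for Tagln and 55.9 and 16.9 FPKM for Ctgf. Without GM DMSO library A, Tagln differed by -1.99 (adjusted p = 7.79e-05) and Ctgf by -1.9 (adjusted p = 5.75e-08). Under the same minimum of 5 CPM, the largest rises in the list were those of Postn (6.11, SE 0.21, adjusted p = 1.02e-10), Dcn, which encodes the TGF-beta-binding proteoglycan decorin (5.77, SE 0.49, adjusted p = 3.8e-07), and Fmod (4.53, SE 0.31, adjusted p = 5.78e-08). All 3 were below 1 FPKM in both GM libraries, and the Dcn value, with GM libraries at 0 and 0.29 FPKM, depends on the prior count and was 10.6 without GM DMSO library B.

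The summed level of a list of fibroblast and fibro-adipogenic cell markers differed between treatments, while its members did not all move one way. The 5 genes Pdgfra, Ly6a, Dpt, Thy1 and Gli1 summed to 40.8 and 44.0 FPKM with DMSO and 76.3 and 76.5 FPKM with PFI-3 at DM 24h, and to 35.9 to 37.4 against 63.0 to 69.1 FPKM at DM 48h. Most of the sum was Ly6a, and Pdgfra was also higher with PFI-3 at both DM stages, at 3.59 to 4.16 FPKM against 1.60 to 1.88 FPKM. At DM 48h 2 other members were lower with PFI-3, Dpt at 1.43 and 1.48 FPKM against 3.40 and 3.21 FPKM and Gli1 at 0.07 and 0.04 FPKM against 0.20 and 0.17 FPKM. Thy1 was at most 0.09 FPKM in every library. In GM the sum was 9.02 FPKM in library A and 40.7 FPKM in library B with DMSO, and 11.6 and 33.4 FPKM with PFI-3. Inhba, Acta2 and Tagln were higher in library A than in library B under both treatments in GM. The part of these markers, and of the lower summed myoblast markers with PFI-3, in the changes of the 9 genes was not tested.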

How the data were processed

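RNA of C2C12 cells was sequenced in 12 libraries, 6 groups of 2 set by stage and treatment, as read from the sample titles. Per the file headers, the deposited tables give 1 expected count per gene and library, unnormalised. The same tables, made by the authors' sequencing provider, give FPKM, relative to transcript length and library total, per the file headers. Per the submitters' processing notes the build is mm10 and HISAT, StringTie, Cufflinks, Bowtie, RSEM and DESeq2 were used; their versions and roles are not given in the sources used here. A gene missing from a table was read as 0: of 6963 cases in which 1 of 2 duplicates listed a gene, 97.0% had a count of at most 5 there.

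Expected counts were rounded and tested with edgeR 4.0.16 (R 4.3.3) using TMM scaling, its low-count filter (12545 of 16288 genes kept) and 1 model of 6 groups over 12 libraries, with Benjamini-Hochberg adjustment over all genes tested; SE is the log2 fold change over the root of F. Contrasts were PFI-3 against DMSO in each stage, stages with DMSO, and interactions. With 2 libraries a group the p-values rest on a spread shared by all groups. The wider GM spread enters the DM tests, and the narrower DM spread enters the GM tests. Alternatives were DESeq2-style size factors, DESeq2 1.42.0, limma 3.58.1 on log2(FPKM + 1) and log2(FPKM + 0.1), no filter, a minimum mean of 10 counts, a 2-fold cutoff, only the libraries compared, the replicate letter as a block, leaving out each library, and, chosen after seeing the data, the 8 DM libraries alone. The tests were tested on simulated data. Intervals and floors (3 counts) cover counting error only, since reads without molecular identifiers are not independent molecules.

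The 10 genes, the pathway and marker lists and the naming rule were chosen with earlier results of these data known. From the pathway list the text names, per PFI-3 comparison and for DM 48h against GM, the 3 largest rises and falls among called genes whose mean reached 5 CPM, plus Acvr1b, Acvr2a, Acvr2b, Smad2, Smad3, Smad4, Smad7 and Ctgf; 1 further gene is not reported here. Likeness was ranked for the 3 genes with the most PFI-3 calls, over genes whose mean reached 10 CPM. Sequences and positions come from RefSeq on GRCm38.p6. Python 3.11.15 with pandas 2.3.3 and matplotlib 3.10.9 drew the figures.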

Additional observations from a re-analysis of the deposited data

Results flagged for a closer look

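The PFI-3 effect on Fst differed between stages by a direct test. The effect at DM 48h minus that in GM was -0.95 (SE 0.22, edgeR adjusted p = 0.0148; called in 14 of 17 alternatives besides the 2-fold cutoff) and minus that at DM 24h it was -0.76 (SE 0.21, adjusted p = 0.0348; called in 8 of 17). Both Fst libraries with PFI-3 were below both with DMSO at all 3 stages. For Fstl1, the PFI-3 effect at DM 48h minus the GM effect was -0.73 (SE 0.12, adjusted p = 0.00172), with both PFI-3 libraries above the DMSO pair in GM and below it at DM 48h on the FPKM scale. GM libraries enter 2 of these 3 differences, and GM duplicates were the further apart.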

How the results depend on the processing

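Of 945 recomputed values of single genes, 809 kept direction and side of the threshold, 68 lost a call, 41 gained one and 27 changed sign; 0 of the sign changes were of called values. Values near 0 changed sign: in GM, Tgfb1 was 0.071 and 0.0721 and Tgfbr2 0.0858 and 0.0887 with limma, and Tgfbr2 0.002 with only the libraries compared; at DM 48h Tgfbr2 was -0.000357 with DESeq2-style size factors and -0.000356 with DESeq2; the Tgfb3 effect at DM 48h against DM 24h was 0.00277, 0.00279, 0.00961 and 0.0172 with these size factors, DESeq2 and limma (pseudocounts 1 and 0.1).

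The number of the 9 genes called, in either direction, depended on the setting. With the 2-fold cutoff it was 1 for PFI-3 in GM, 1 and 2 for PFI-3 at the DM stages, 4 for DM 24h against GM, and 0 for the DM 48h against GM and DM 48h against DM 24h effects. With only the libraries compared it was 0 in GM, 8 at DM 24h and 7 for the DM 48h against DM 24h effect. With that setting the calls over all genes numbered 38, 5603 and 4170 in these comparisons, against which the counts are to be read. In the 8 DM libraries the number of the 9 genes called was 7 at DM 24h. DESeq2 gave 1 for the DM 24h against GM effect, and limma with pseudocount 0.1 gave 0 for the DM 48h against DM 24h effect. The cause was not tested.

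Leaving out each library in turn, with the lone library assumed to vary like the other groups, gave 1 to 4 calls for PFI-3 in GM, 2 to 3 at DM 24h, 4 to 5 at DM 48h, 7 to 9 for DM 24h against GM, 3 to 4 for DM 48h against DM 24h, and 0 to 5, 1 to 5 and 0 to 0 for the effects at DM 24h against GM, DM 48h against GM and DM 48h against DM 24h. Signs changed for PFI-3 in GM of Inhba (-0.78 to 0.49), Tgfb1 (-0.117 to 0.0609), Tgfb3 (-0.418 to 0.188) and Tgfbr2 (-0.123 to 0.106), at DM 48h of Inhba (-0.0114 to 0.11) and Tgfbr2 (-0.00778 to 0.0145), for DM 48h against GM of Fstl3 (-0.313 to 0.255) and Tgfbr1 (-0.0349 to 0.211), for DM 48h against DM 24h of Tgfb2 (-0.0835 to 0.0159), and for the Fst effect at DM 24h against GM (-0.558 to 0.11).

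Over all genes, calls for PFI-3 against DMSO numbered 1456 in GM (38 with only the libraries compared, 2774 with the block within stages, 1183 to 2742 without 1 library), 2966 at DM 24h (573 with the 2-fold cutoff to 5603, and 1323 to 1471 without 1 library) and 3438 at DM 48h (793 to 5841, and 1961 to 2092). The time comparisons gave 7602, 9169 and 6035 (2394, 4137 and 1645 with the 2-fold cutoff). The interactions gave 423 (92 to 1225), 1824 (502 to 2980) and 1517 (411 to 4170). The values 92 and 4170 came with only the libraries compared. The block within stages gave 1225 and 2980, and the 2-fold cutoff gave 502 and 411. Of the 423, 52.7% were higher, against 32.9% with limma on log2(FPKM + 1).

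The labels do not say what the letters A and B stand for. Deviations of same-letter libraries correlated at 0.472 between the GM groups and at 0.014 and 0.032 at DM 24h and DM 48h, so pairing by letter, which would need every stage to exceed 0.1, was not adopted, although the GM libraries of 1 letter did deviate together. With the replicate block within each stage, calls among the 9 genes numbered 4 for PFI-3 in GM, with Fstl1 (0.253, adjusted p = 0.00591) and Fstl3 (-0.405, adjusted p = 0.00908) gained, and 2, 5 and 4 for the effects at DM 24h against GM, DM 48h against GM and DM 48h against DM 24h; with the replicate block over all stages the second of these was 4. With the block within stages Tgfb1 changed by 0.0346 from GM to DM 48h and Tgfb2 by 0.0139 from DM 24h to DM 48h.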

Other observations

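Other inhibin and activin subunit genes of the pathway list, named here after their values were seen, were called at single stages. Inhbb, the activin B subunit gene, fell by 1.1 with PFI-3 in GM (SE 0.23, adjusted p = 0.0109), where the DMSO libraries were at 10.9 and 5.85 FPKM and the PFI-3 libraries at 4.23 and 4.17 FPKM. Without GM DMSO library A its value was -0.535 (adjusted p = 0.0128). Inha, the inhibin alpha subunit gene, fell by 0.90 at DM 48h (SE 0.19, adjusted p = 0.00461), from 6.77 and 7.18 FPKM to 3.41 and 4.13 FPKM, and the call was lost without DM 48h PFI-3 library A (adjusted p = 0.0611). Tgfbr3, which encodes the co-receptor betaglycan, rose by 1.40 at DM 24h (SE 0.37, adjusted p = 0.0176), at levels of 0.46 and 0.37 FPKM with DMSO and 1.29 and 0.98 FPKM with PFI-3. The call was lost when DMSO library A, DMSO library B or PFI-3 library A of that stage was left out (adjusted p = 0.077 to 0.136).

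Pmepa1, a feedback inhibitor of SMAD signalling, fell with PFI-3 at all 3 stages, by 0.64, 0.86 and 0.94 (SE 0.14 each, adjusted p = 0.0151, 0.00129 and 0.000445). At DM 48h it was at 97.2 and 93.1 FPKM with DMSO and 50.9 and 54.8 FPKM with PFI-3. In GM its value was -0.301 without DMSO library A (adjusted p = 0.019), and its call was lost without PFI-3 library B (adjusted p = 0.0507). In a fit of the 4 GM libraries alone the GM calls of Inhbb and Pmepa1 were lost (adjusted p = 0.275 and 0.317). Skil, which encodes the SMAD co-repressor SnoN, fell at DM 24h and DM 48h by 0.45 and 0.74 (SE 0.11 each, adjusted p = 0.0148 and 0.000452), and the DM 24h call was lost without any 1 of its 4 libraries (adjusted p = 0.0511 to 0.122). Tgif1, another co-repressor gene, fell at DM 48h by 0.62 (SE 0.10, adjusted p = 0.000617). These were also chosen after their values were seen.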
